A study of Mus musculus with 15 samples.

Results

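The 10 genes described here encode proteins of the basement membrane: the laminin chains Lama1, Lama5, Lamb1, Lamb2 and Lamc1, the nidogens Nid1 and Nid2, the heparan sulfate proteoglycans Hspg2 (perlecan) and Agrn (agrin), and Sparc. They were chosen by symbol out of 55228 genes listed in every library. The rule behind the choice named a measured result, that Lama1 was lower at all 3 knockdown times. Those 3 differences of Lama1 are therefore given as a description without a test. The members were also chosen with earlier results of these data known, and the p-values of the other members do not allow for that. All 10 members had reads in all 15 libraries and passed the minimum mean level of 1 RPM (reads per 1000000 reads) in each comparison, so no member was lost to the filter.

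A basement membrane is a thin sheet of extracellular matrix on which epithelia, muscle and nerve rest. Laminins form inside the cell as trimers of an alpha, a beta and a gamma chain, are secreted and assemble at the cell surface through integrins and dystroglycan, while nidogens and perlecan link the laminin sheet to the type IV collagen network. In the early mouse embryo the laminins made of Lama1 or Lama5 with Lamb1 and Lamc1 are the first to be deposited, and cultured embryonic stem cells make them too.

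RNA-seq was performed on the mouse embryonic stem cell (mESC) line 81K1, a single clone (K1) of the OG2 line that carries an shRNA cassette against Smarcb1, a core subunit of BAF chromatin remodelling complexes, in the Rosa26 locus under a promoter that depends on doxycycline. The 15 libraries comprised 5 groups of 3. Untreated cells were sampled at 48 h (48 h ctrl) and at 240 h (240 h ctrl), and cells given doxycycline daily at 48 h, 72 h and 240 h (48 h kd, 72 h kd, 240 h kd). The 72 h kd group has no control of its own and was set against 48 h ctrl, so the 48 h and 72 h comparisons share their control libraries. Controls and kd cells carried the same cassette, and cells of both kinds were grown with LIF and serum on gelatine. Doxycycline and the shRNA cannot be told apart in these libraries. The labels do not say whether the replicates were separate cultures, so p-values measure the spread between these libraries only.

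The libraries held 11074998 to 14515300 reads. Smarcb1 itself lay at 82.2 to 97.8 RPM in the 6 control libraries and at 12.5 to 20.4 RPM in the 9 kd libraries, with no overlap. One library, 48 h kd replicate 2, stood apart from its group: chi-square over degrees of freedom of its reads was 11.3 and 9.14 against the other 48 h kd libraries, and 1.51 between those 2, and mitochondrial genes took 2.53% of its reads against 1.25% and 1.29%. In 240 h ctrl, replicate 3 reached 8.89 and 5.02 in chi-square over degrees of freedom, against 2.23 between the others. Mitochondrial genes took 0.507% of its reads, against 1.45% and 1.26%.

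Levels are given in RPM within a gene. Between genes they are compared as RPM per exonic kb, with the caveat that reads were counted over the whole gene span, introns included, and without regard to strand. Differences are log2 fold changes from limma on log2(RPM + 0.5) with the standard error (SE), and a gene was called where the Benjamini-Hochberg adjusted p-value was below 0.05 and the log2 fold change exceeded 0.58 in either direction. Bulk RNA cannot tell fewer cells of a kind from less RNA per cell.

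In untreated cells the laminin gamma chain dominated. On the scale of RPM per exonic kb, Lamc1 was the highest member in all 5 groups, with 72.0 ± 2.54 (SD, n = 3) in 48 h ctrl cells. Nid2 followed at 45.9 ± 0.918, then Sparc at 31.9 ± 1.00 and Hspg2 at 28.9 ± 2.05, whose ranges overlapped, and Agrn at 23.7 ± 1.73. The remaining laminin chains and Nid1 lay lower, from Lamb1 at 14.8 ± 0.228 down to Lamb2 at 7.27 ± 0.255, and the ranges of Lama1 (11.9 ± 0.255) and Nid1 (11.9 ± 0.296) overlapped. Lama1 and Lama5 were thus at similar levels in untreated mESC, where Lama1 made up 47.6% ± 1.96 of the sum of these 2 alpha chains at 48 h and 43.3% ± 3.93 at 240 h (SD, n = 3).

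**Figure D1:**
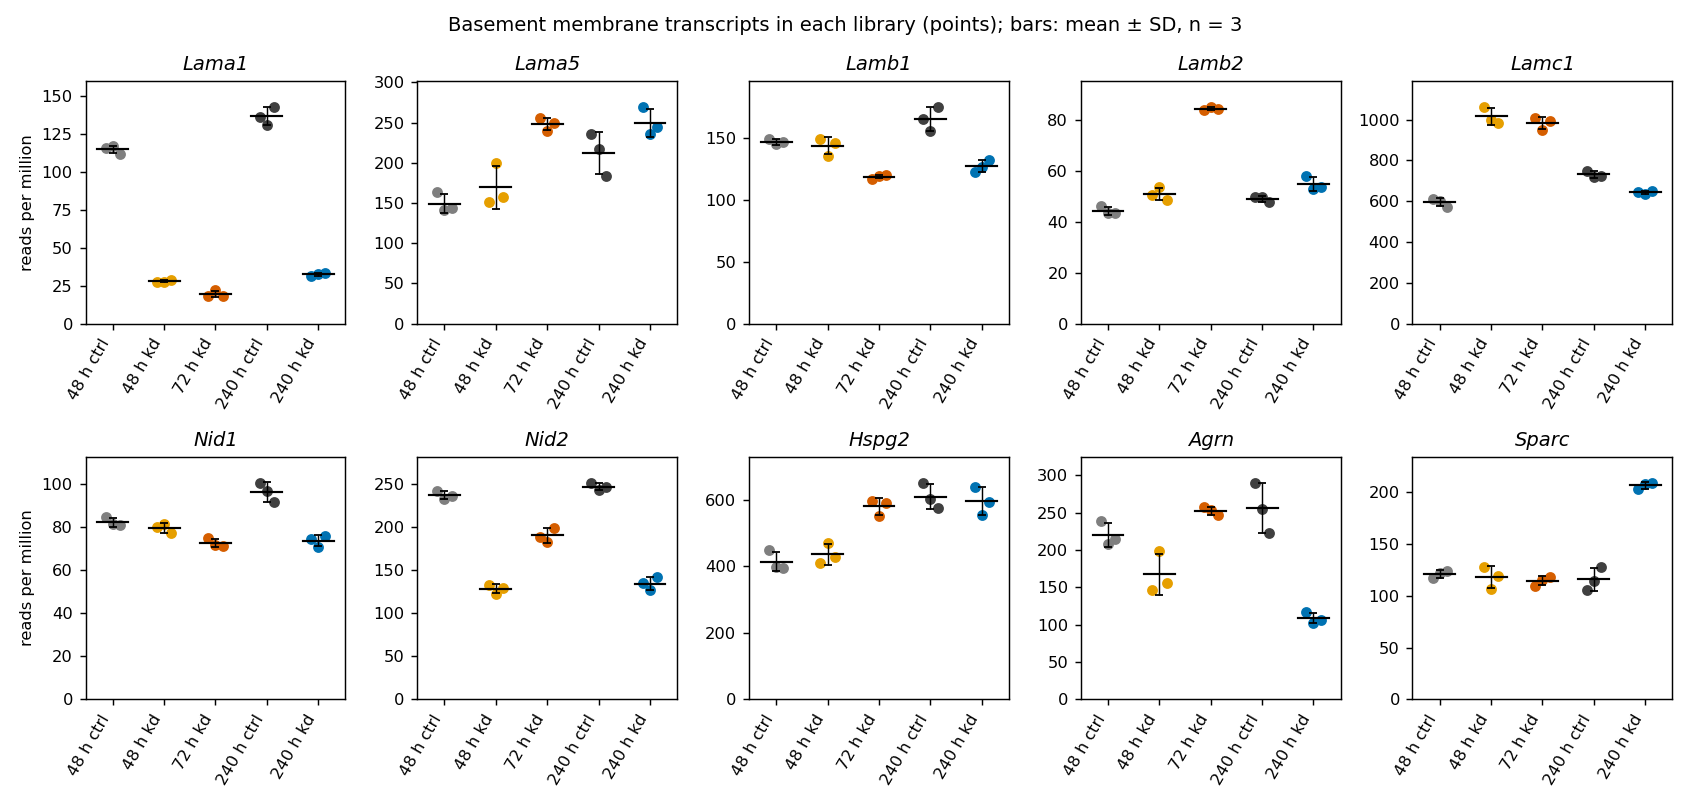
RPM (y axis, starting at 0, a separate scale for each gene) of the 10 members in the 15 libraries, by group (x axis); points are libraries, horizontal lines the mean of 3 libraries and error bars the SD. Lama1 lies between 112 and 143 in control libraries and between 18.0 and 33.6 in kd libraries, whereas Lamc1 is high at 48 h and 72 h of kd only and Sparc at 240 h of kd only.

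Lama1 (chr17:67697259-67822647, plus strand, GRCm38) encodes laminin alpha 1, the alpha chain of the earliest embryonic laminin. It was at 116, 117 and 112 RPM in 48 h ctrl cells, 27.8, 27.4 and 28.8 RPM after 48 h of kd and 18.0, 21.9 and 18.5 RPM after 72 h of kd. At 240 h it was at 136, 131 and 143 RPM in ctrl and at 31.6, 32.9 and 33.6 RPM in kd. Every kd library thus lay far below every control library, at group means of 24.3%, 16.9% and 23.9% of the respective control mean at 48 h, 72 h and 240 h. The log2 differences that entered the choice of the genes were -2.02 (SE 0.06), -2.54 (SE 0.06) and -2.05 (SE 0.05). The deposited values rest on 230 to 1830 reads per library for this gene, and no other listed gene overlaps its span.

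The remaining differences of Lama1 come from the libraries that entered the choice and are described without a test as well. On the log2 scale its mean was 0.52 below that of 48 h kd after 72 h of kd, and 0.74 above that of 72 h kd after 240 h of kd. The first of these came to -0.61 without 72 h kd replicate 2, the highest of its group. In untreated cells it was 0.25 higher at 240 h than at 48 h. The log2 differences between kd and ctrl at 240 h and at 48 h lay -0.03 apart.

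Among 9600 other protein-coding genes with a mean of at least 10 RPM, those most like Lama1 over the 15 libraries were Yme1l1, a mitochondrial inner membrane protease (Pearson's r = 0.992 of log2(RPM + 0.5)), Bcor, a transcriptional corepressor (r = 0.989), and Actn1, an actin crosslinking protein (r = 0.986). All of these share the libraries and their groups, so the correlations describe a common pattern over 5 groups and nothing more. Among the members, described in the same way, r with Lama1 was 0.826 for Lamb1, 0.818 for Nid1, 0.745 for Nid2, -0.737 for Lamb2 and -0.672 for Lamc1, and from -0.447 to 0.352 for the other 4. Bcor was at 64.6 ± 5.48 RPM in 48 h ctrl cells, 27.2 ± 1.61 after 48 h of kd, 19.4 ± 1.34 after 72 h of kd, 70.9 ± 3.07 in 240 h ctrl cells and 28.0 ± 0.921 after 240 h of kd (SD, n = 3). Its order of groups was that of Lama1. Yme1l1 and Actn1 moved less, with 72 h kd means of 182 ± 3.48 and 217 ± 6.04 RPM against 48 h ctrl means of 303 ± 9.48 and 314 ± 2.84 RPM.

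After 48 h of kd, 1 of the 9 members other than Lama1 rose and 1 fell, where 8.64% of the 15669 genes tested were called (3.98% higher, 4.66% lower). At 72 h, 3 rose and none fell, beside 20.3% of 15611 genes called (11.3% higher, 8.96% lower). At 240 h, 1 rose and 2 fell, beside 16.1% of 15877 genes called (8.62% higher, 7.45% lower). Without a fold limit, 4 of the 9 members passed an adjusted p-value of 0.05 at 48 h (26.8% of genes tested), 8 at 72 h (63.3%) and 8 at 240 h (46.5%). Of these, 2 were higher and 2 lower at 48 h, 5 higher and 3 lower at 72 h, and 3 higher and 5 lower at 240 h. The counts were 3 at 48 h without 48 h kd replicate 2 and 7 at 240 h without 240 h ctrl replicate 3. The groups did not overlap in 4 of the 9 at 48 h (42% of genes tested), 8 at 72 h (66.1%) and 7 at 240 h (53.9%). These shares of members are to be read against those of all genes, which were large too. The median log2 difference over the 9 members was -0.03, 0.20 and -0.18 at the 3 times, beside 0.01, 0.01 and 0.01 over all genes tested.

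**Figure D2:**
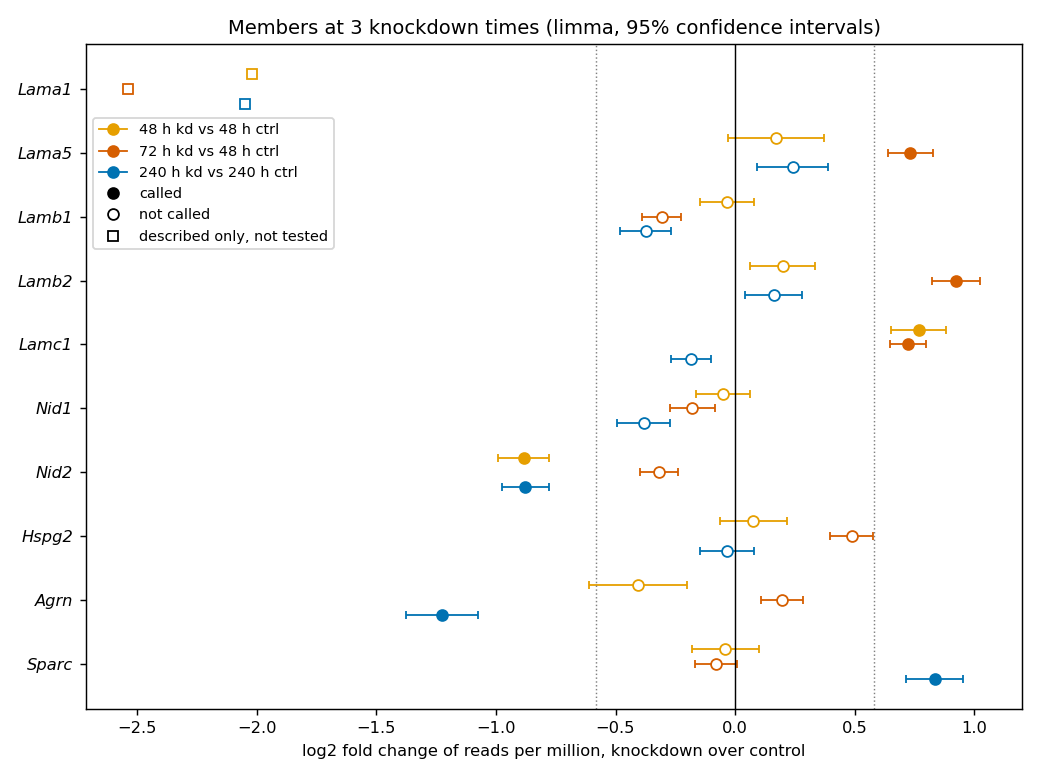
Log2 fold change of RPM (x axis) of each member (y axis) in the comparisons of 48 h kd and 72 h kd with 48 h ctrl and of 240 h kd with 240 h ctrl; error bars are 95% confidence intervals from limma, filled circles are called, dotted lines mark the fold limit of 0.58, and Lama1 (squares without bars) is described without a test. Lama1 is near -2 or below at all 3 times, while Lamc1, Lama5 and Lamb2 lie above the limit at 72 h and Agrn and Sparc pass it in opposite directions at 240 h.

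Lama5 (chr2:180176373-180225859, minus strand) encodes laminin alpha 5, the alpha chain of most later and adult basement membranes. It was at 164, 142 and 143 RPM in 48 h ctrl cells, 151, 199.9 and 157 RPM after 48 h of kd and 256, 239.9 and 249.6 RPM after 72 h of kd. The 72 h kd libraries lay above all 48 h libraries, whereas the 48 h groups overlapped. Lama5 rose by 0.73 (SE 0.05) at 72 h (limma, adjusted p = 5.17e-13), and the difference at 48 h was 0.17 (SE 0.09, limma, adjusted p = 0.192), or 0.05 without 48 h kd replicate 2, its highest library. From 48 h kd to 72 h kd it was 0.56 (SE 0.08) higher (limma, adjusted p = 0.000199), short of the fold limit, but 0.69 and called without that library, and 0.59 and called without 72 h kd replicate 2. At 240 h the values were 236, 217 and 184 RPM in ctrl and 269, 236 and 244 RPM in kd, groups that just overlapped, with a log2 difference of 0.24 (SE 0.07, limma, adjusted p = 0.00993) that was short of the fold limit and came to 0.14 without 240 h ctrl replicate 3.

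The 72 h result of Lama5 depended on the control. In untreated cells Lama5 was 0.50 (SE 0.07) higher at 240 h than at 48 h (limma, adjusted p = 0.000441). With 240 h ctrl in place of 48 h ctrl, the 72 h kd difference was 0.23 (limma, adjusted p = 0.00504) and was no longer called. Against 48 h ctrl, with a trend by base composition described below removed, it was 0.54 and not called either. The share of Lama1 in the sum of Lama1 and Lama5 per exonic kb was 16.5% ± 2.24 after 48 h of kd, 8.45% ± 1.11 after 72 h of kd and 13.4% ± 1.097 after 240 h of kd (SD, n = 3). The sum of both alpha chains came to 25.0 ± 1.16 in 48 h ctrl cells, 17.8 ± 2.28 after 48 h of kd and 23.8 ± 0.485 after 72 h of kd, and to 32.8 ± 1.95 in 240 h ctrl cells and 25.3 ± 1.46 after 240 h of kd, all in RPM per exonic kb. Share and sum rest in part on the Lama1 values that entered the choice of the genes, and are descriptions.

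Lamb2 (chr9:108479736-108490530, plus strand) encodes laminin beta 2, known from the neuromuscular junction and the kidney filter, and was the lowest member in 48 h ctrl cells. It was at 46.0, 43.2 and 43.5 RPM in 48 h ctrl cells, 50.6, 53.5 and 48.6 RPM after 48 h of kd and 83.9, 84.9 and 84.1 RPM after 72 h of kd. The 3 groups did not overlap, and the 72 h libraries were nearly equal. Lamb2 rose by 0.92 (SE 0.05) at 72 h against 48 h ctrl (limma, adjusted p = 1.52e-14) and by 0.72 (SE 0.05) against 48 h kd (limma, adjusted p = 1.34e-06). The rise was called with 240 h ctrl as the control too, where it was 0.78. With the trend by base composition described below removed, the difference from 48 h kd was 0.57 and was not called.

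Lamb2 fell by 0.62 (SE 0.05) from 72 h kd to 240 h kd (limma, adjusted p = 1.25e-12), where it was at 57.9, 53.0 and 53.6 RPM against 49.5, 49.7 and 47.6 RPM in 240 h ctrl cells. At 48 h and at 240 h it was 0.20 (SE 0.06, limma, adjusted p = 0.0324) and 0.16 (SE 0.06, limma, adjusted p = 0.0273) higher than its control, short of the fold limit both times. The first was 0.16 (limma, adjusted p = 0.0535) without 48 h kd replicate 2 and the second 0.14 (limma, adjusted p = 0.0539) without 240 h ctrl replicate 3. With the trend by base composition removed, the change from 72 h kd to 240 h kd was -0.47 and was not called.

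Lamb1 (chr12:31265234-31329644, plus strand) encodes laminin beta 1, the usual partner of Lama1 and Lamc1. Its values ranged from 145 to 149 RPM in 48 h ctrl cells, from 136 to 149 RPM after 48 h of kd and from 117 to 119.8 RPM after 72 h of kd, and from 155 to 175 RPM in 240 h ctrl cells and 123 to 132 RPM after 240 h of kd. It was lower by 0.31 (SE 0.04, limma, adjusted p = 2.05e-07) at 72 h and by 0.37 (SE 0.05, limma, adjusted p = 1.07e-05) at 240 h without overlap, short of the fold limit each time, and differed by -0.03 at 48 h (limma, adjusted p = 0.674), or by 0.01 without 48 h kd replicate 2. The ratio of Lamb1 to Lamb2 per exonic kb accordingly went from 2.04 ± 0.0416 in 48 h ctrl cells to 1.73 ± 0.157 after 48 h of kd and 0.863 ± 0.00955 after 72 h of kd, the single group in which Lamb2 exceeded Lamb1. It was 2.07 ± 0.170 in 240 h ctrl cells and 1.43 ± 0.113 after 240 h of kd (SD, n = 3).

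Lama5, Lamb2 and Agrn had the 3 largest log2 differences among the members' laminin and proteoglycan genes from 48 h kd to 72 h kd, at 0.56, 0.72 and 0.60, and the bases before their start sites are shown for that reason. The nidogen Nid2, at 0.57, lay above Lama5 but had no promoter at hand. RefSeq promoters on GRCm38.p6 were at hand for 7 of the 10 members, not for Lama1, Lamc1 and Nid2. Each stretch holds the 250 bases before the RefSeq start site, read 5′ to 3′ on the strand of the gene. Capitals mark the GC box GGGCGG on either strand, a letter pattern that 32.7% of 32851 RefSeq promoters of this kind hold. The start site of Lamb2 lies 126 bases inside the GENCODE gene, and those of Lama5 and Agrn coincide with it. Lama5 lies at chr2:180225860-180226109, Lamb2 at chr9:108479612-108479861 and Agrn at chr4:156197489-156197738.
Lama5: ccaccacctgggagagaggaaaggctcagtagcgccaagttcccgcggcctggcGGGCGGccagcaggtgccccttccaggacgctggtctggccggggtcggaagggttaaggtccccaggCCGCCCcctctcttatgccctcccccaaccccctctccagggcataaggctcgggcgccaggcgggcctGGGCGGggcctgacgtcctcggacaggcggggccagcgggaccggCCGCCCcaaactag
Lamb2: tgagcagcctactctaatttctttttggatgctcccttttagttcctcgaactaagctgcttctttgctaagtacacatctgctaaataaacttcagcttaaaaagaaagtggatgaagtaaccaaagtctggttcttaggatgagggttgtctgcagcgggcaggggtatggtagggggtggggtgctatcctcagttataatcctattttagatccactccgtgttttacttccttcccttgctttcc
Agrn: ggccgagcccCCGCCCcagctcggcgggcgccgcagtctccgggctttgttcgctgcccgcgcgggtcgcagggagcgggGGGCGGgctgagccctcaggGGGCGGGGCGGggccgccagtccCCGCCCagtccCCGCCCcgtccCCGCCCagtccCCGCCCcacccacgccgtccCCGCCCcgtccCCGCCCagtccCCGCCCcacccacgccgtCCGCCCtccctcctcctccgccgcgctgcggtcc
The stretch of Agrn has 12 matches, some of which share a base, at 83.6% G and C, and that of Lama5 has 4 at 72.4%. The stretch of Lamb2 has none at 43.6%, which is the smallest share of G and C among the 7. The 3 start regions thus differed widely in base composition. The CCAAT box (CCAAT), the TATA box (TATAAA), the AP-1 element (TGACTCA) and the octamer (ATGCAAAT), also searched on both strands, had no match in these 3 stretches and were held by 33.8%, 12.4%, 4.46% and 1.6% of those promoters. A match of letters is a description and no binding site.

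**Figure D3:**
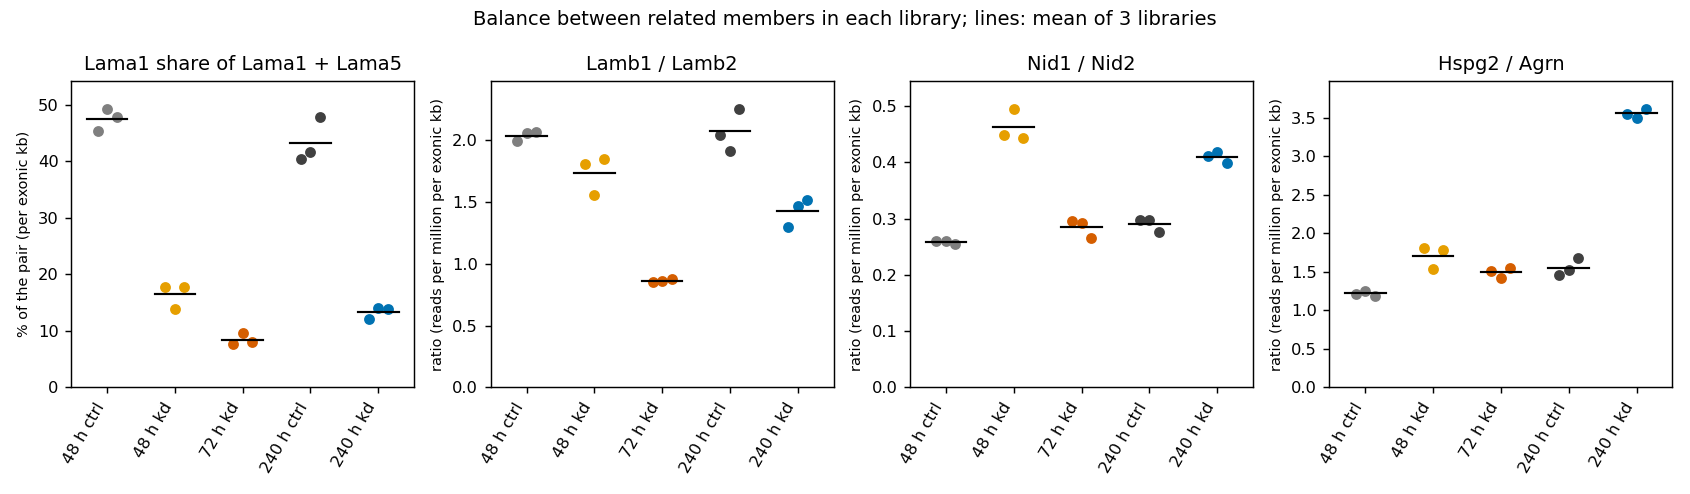
Ratio of related members in each library, from RPM per exonic kb, by group (x axis); from left to right the share of Lama1 in the sum of Lama1 and Lama5 (in %), Lamb1 over Lamb2, Nid1 over Nid2 and Hspg2 over Agrn, with points for libraries and lines for the mean of 3. The share of Lama1, which rests on values that entered the choice of the genes, is 47.6% in 48 h ctrl and 43.3% in 240 h ctrl. In kd groups it lies between 8.45% and 16.5%. Lamb1 over Lamb2 is under 1 after 72 h of kd alone, and Hspg2 over Agrn is highest after 240 h of kd at 3.56.

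Lamc1 (chr1:153218922-153332786, minus strand) encodes laminin gamma 1, the gamma chain of nearly all laminins. It was at 612, 603 and 572 RPM in 48 h ctrl cells, 1061, 999.8 and 984 RPM after 48 h of kd and 1009, 951 and 994 RPM after 72 h of kd. Both early kd groups lay well above the controls and overlapped each other. Lamc1 rose by 0.77 (SE 0.05) at 48 h (limma, adjusted p = 9.27e-07) and by 0.72 (SE 0.04) at 72 h (limma, adjusted p = 7.55e-15), the latter 0.43 and not called against 240 h ctrl.

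At 240 h the order was turned round. Lamc1 was at 748, 720.0 and 725 RPM in 240 h ctrl cells and at 647, 633 and 649 RPM after 240 h of kd, below every control, by 0.18 (SE 0.04) on the log2 scale (limma, adjusted p = 0.000946) and short of the fold limit. It fell by 0.61 (SE 0.03) from 72 h kd to 240 h kd (limma, adjusted p = 9.06e-17). With the trend by base composition described below removed, this change was -0.55 and was not called. The kd effects at 240 h and 48 h differed by -0.95 (SE 0.06, limma interaction, adjusted p = 4.71e-09), where 10.6% of 15781 genes were called for this difference. Per exonic kb, Lamc1 exceeded Lamb1 by a ratio of 4.86 ± 0.161 in 48 h ctrl cells, 8.49 ± 0.387 after 48 h of kd and 9.95 ± 0.367 after 72 h of kd, but 6.07 ± 0.234 after 240 h of kd beside 5.32 ± 0.312 in 240 h ctrl cells (SD, n = 3).

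Nid2 (chr14:19751265-19811787, plus strand) encodes nidogen 2, one of the pair of nidogens that bind the laminin gamma chain and collagen IV. It was at 243, 234 and 236 RPM in 48 h ctrl cells, 133, 123 and 129.7 RPM after 48 h of kd and 189, 183 and 199.8 RPM after 72 h of kd. At 240 h it was at 252, 243 and 247 RPM in ctrl and 135, 127 and 142 RPM in kd. All kd libraries lay below all controls, with 72 h kd between 48 h kd and the controls. Nid2 fell by 0.88 (SE 0.05) at 48 h (limma, adjusted p = 1.31e-07) and by 0.88 (SE 0.05) at 240 h (limma, adjusted p = 1e-10), and the 2 effects differed by 0.01 (95% confidence interval -0.13 to 0.15).

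At 72 h the difference of Nid2 from 48 h ctrl was -0.32 (SE 0.04, limma, adjusted p = 1.2e-07), short of the fold limit, and Nid2 was 0.57 (SE 0.05) higher than after 48 h of kd (limma, adjusted p = 5.72e-06), also short of it. That last value passed the limit at 0.59 without 48 h kd replicate 1 and at 0.60 without 72 h kd replicate 2. Nid2 shares 437 bases with the 3′ end of Rtraf on the other strand, and reads there counted for both genes. Rtraf had 71.6% as many reads as Nid2 on average and was lower in kd by 0.21 (SE 0.05) at 48 h and 0.29 (SE 0.04) at 240 h, beside 0.88 for Nid2 at both times. At 72 h it was lower by 0.23 (SE 0.04, limma, adjusted p = 3.01e-05), beside 0.32 for Nid2. How many of the reads of Nid2 lie in the shared bases cannot be read from these values.

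Nid1 (chr13:13437551-13512269, plus strand) ranged from 81.0 to 84.7 RPM in 48 h ctrl cells, from 77.2 to 81.5 RPM after 48 h of kd and from 71.1 to 75.0 RPM after 72 h of kd, and from 91.5 to 101 RPM in 240 h ctrl cells and 71.0 to 76.1 RPM after 240 h of kd. It was 0.18 (SE 0.05) lower at 72 h (limma, adjusted p = 0.00139) and 0.38 (SE 0.05) lower at 240 h (limma, adjusted p = 1.15e-05), short of the fold limit, and differed by -0.05 at 48 h (limma, adjusted p = 0.524). The ratio of Nid1 to Nid2 per exonic kb was 0.258 ± 0.00253 in 48 h ctrl cells and 0.462 ± 0.0285 after 48 h of kd, was 0.285 ± 0.0169 after 72 h of kd, and was 0.290 ± 0.0125 and 0.409 ± 0.00907 in ctrl and kd cells at 240 h (SD, n = 3). The antisense gene Gm48682 inside Nid1 had 9.81% as many reads as Nid1, all of which also counted for Nid1.

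Agrn (chr4:156165290-156197488, minus strand) encodes agrin, which clusters acetylcholine receptors at synapses and binds laminin and dystroglycan. It was at 239, 208 and 215 RPM in 48 h ctrl cells, 147, 199 and 156 RPM after 48 h of kd and 257, 253 and 247 RPM after 72 h of kd. It was at 290.1, 256 and 223 RPM in 240 h ctrl cells and at 117, 103 and 107 RPM after 240 h of kd, the lowest libraries of all. Agrn was thus below its control at 48 h, above it at 72 h and far below it at 240 h, with no overlap at any time.

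Agrn fell by 1.23 (SE 0.07) at 240 h (limma, adjusted p = 3.49e-10). At 48 h the difference was -0.41 (SE 0.09, limma, adjusted p = 0.00672), or -0.54 without 48 h kd replicate 2, and at 72 h it was 0.20 (SE 0.04, limma, adjusted p = 0.000314), all short of the fold limit. Against 240 h ctrl the 72 h difference was -0.01 (limma, adjusted p = 0.87). Within kd cells Agrn rose by 0.60 (SE 0.09) from 48 h to 72 h (limma, adjusted p = 0.000158), a call that was lost at 0.52 without 48 h kd replicate 1 and at 0.56 without 48 h kd replicate 3, and fell by 1.21 (SE 0.04) from 72 h to 240 h (limma, adjusted p = 6.73e-21). The effects at 240 h and 48 h differed by -0.82 (SE 0.14, limma interaction, adjusted p = 0.000357), or by -0.69 without 48 h kd replicate 2. With the trend by base composition removed, the change of Agrn from 48 h to 72 h of kd was 0.47 and was not called.

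Hspg2 (chr4:137468769-137570630, plus strand) encodes perlecan, the other large heparan sulfate proteoglycan of basement membranes. It ranged from 395 to 448 RPM in 48 h ctrl cells, from 409 to 471 RPM after 48 h of kd and from 552 to 598 RPM after 72 h of kd, and from 577 to 651 RPM in 240 h ctrl cells and 555 to 639 RPM after 240 h of kd. Hspg2 was 0.49 (SE 0.04) higher at 72 h than in 48 h ctrl cells (limma, adjusted p = 3.47e-10), short of the fold limit, and 0.07 lower than in 240 h ctrl cells (limma, adjusted p = 0.216). Its differences at 48 h and 240 h were 0.08 (95% confidence interval -0.06 to 0.22) and -0.03 (-0.15 to 0.08), or 0.02 without 48 h kd replicate 2 and -0.07 without 240 h ctrl replicate 3. The ratio of Hspg2 to Agrn per exonic kb stood at 3.56 ± 0.0580 after 240 h of kd beside 1.55 ± 0.113 in 240 h ctrl cells, and at 1.71 ± 0.154 after 48 h of kd and 1.49 ± 0.0710 after 72 h of kd beside 1.22 ± 0.0268 in 48 h ctrl cells (SD, n = 3).

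Sparc (chr11:55394500-55423183, minus strand) encodes a secreted collagen-binding protein that is abundant in parietal endoderm. It was at 117, 122 and 124 RPM in 48 h ctrl cells, 128, 107 and 119 RPM after 48 h of kd and 109, 116 and 118 RPM after 72 h of kd. It was at 105, 115 and 127 RPM in 240 h ctrl cells and at 203, 208 and 209 RPM after 240 h of kd. The first 4 groups overlapped, and 240 h kd lay above all other libraries. Sparc rose by 0.84 (SE 0.06) at 240 h (limma, adjusted p = 2.21e-09) and by 0.85 (SE 0.04) from 72 h kd to 240 h kd (limma, adjusted p = 5.28e-18). At 48 h and 72 h the differences were -0.04 (95% confidence interval -0.18 to 0.10, or 0.03 without 48 h kd replicate 2) and -0.08 (-0.17 to 0.01), and the effects at 240 h and 48 h differed by 0.88 (SE 0.09, limma interaction, adjusted p = 2.5e-06).

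**Figure D4:**
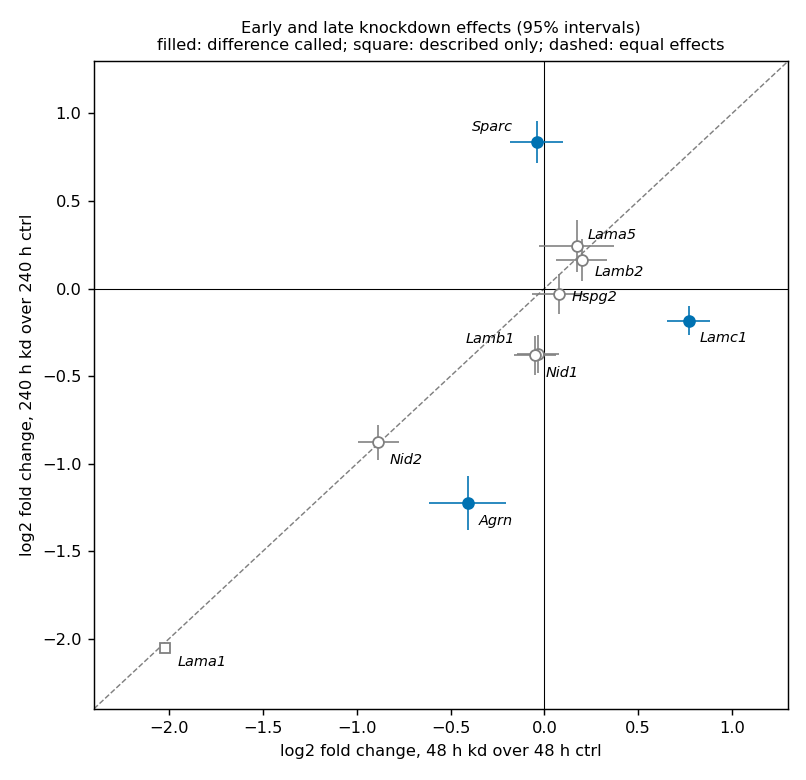
Log2 fold change of each member after 240 h of kd over 240 h ctrl (y axis) against that after 48 h of kd over 48 h ctrl (x axis), 2 comparisons with no library in common; bars are 95% confidence intervals, filled points are members whose effects were called different in the interaction test, the square without bars is Lama1, described without a test, and the dashed line marks equal effects. Lama1 and Nid2 lie on the line near -2 and -0.88, whereas Lamc1 and Agrn lie below it and Sparc above it.

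The kd effect differed between 240 h and 48 h in 3 of the 9 members other than Lama1, Lamc1 and Agrn downwards and Sparc upwards, where 5.11% of genes were called downwards and 5.47% upwards. Lamb1 and Nid1 also differed, by -0.34 (SE 0.07, limma interaction, adjusted p = 0.00239) and -0.33 (SE 0.07, limma interaction, adjusted p = 0.00222), short of the fold limit, so that 5 of the 9 passed without one beside 21.2% of genes tested. For Lama5, Lamb2 and Hspg2 the differences between the effects were 0.07 (95% confidence interval -0.22 to 0.36), -0.04 (-0.21 to 0.13) and -0.11 (-0.30 to 0.09). Without 48 h kd replicate 2 they were 0.19, -0.00241 and -0.05, and without 240 h ctrl replicate 3 they were -0.03, -0.06 and -0.15.

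Untreated cells were compared between 240 h and 48 h of culture. None of the 9 members other than Lama1 was called between 240 h ctrl and 48 h ctrl (limma), where 1.16% of 15660 genes were (0.754% higher, 0.409% lower). The groups did not overlap in 7 of the 9, beside 32.5% of genes tested. At an adjusted p-value under 0.05 without a fold limit 5 of them were higher at 240 h and none was lower, beside 13.4% of genes tested. An unadjusted p-value under 0.05 was reached by 7 of the 9, beside 4549 of the 15660 genes. The largest of these was Hspg2 at 0.56 (SE 0.06, limma, adjusted p = 2.64e-05), followed by Lama5, while Lamc1 was 0.30 (SE 0.04, limma, adjusted p = 0.000469), Nid1 0.22 (SE 0.05, limma, adjusted p = 0.00961) and Lamb1 0.17 (SE 0.05, limma, adjusted p = 0.0355) higher. Without 240 h ctrl replicate 3, Lamb1 was at 0.12 (limma, adjusted p = 0.0772), and Agrn went from 0.21 (limma, adjusted p = 0.0681) to 0.31 (limma, adjusted p = 0.00042). Hspg2 passed the fold limit at 0.62 without 48 h ctrl replicate 1, and Hspg2 and Lama5 passed it, both at 0.60, without 240 h ctrl replicate 3.

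Durations of kd were compared without controls, so duration of kd and time in culture cannot be told apart in these differences. From 48 h to 72 h, 2 of the 9 members other than Lama1 rose (Lamb2 and Agrn), where 11.7% of 15590 genes were called (6.3% higher, 5.38% lower). Without a fold limit 6 of the 9 passed (44% of genes tested), or 7 without 48 h kd replicate 2 (Sparc at -0.11, adjusted p = 0.0416, besides), and the groups did not overlap in 7 (54.2%). From 72 h to 240 h, 1 rose (Sparc) and 3 fell (Lamb2, Lamc1 and Agrn), where 22.4% of 15755 genes were called (10.4% higher, 12% lower). Here 6 of the 9 passed without a fold limit (66.8% of genes tested), and the groups did not overlap in 6 (69.2%). The 72 h libraries also differed from the others by base composition over all genes. Genes with at least 55% G and C had a median log2 difference of 0.164 against 48 h ctrl and 0.141 against 48 h kd, and genes under 45% one of -0.0762 and -0.0770. Lama5 (59.9%), Lamb2 (58.8%), Hspg2 (60.9%) and Agrn (56.5%), the members above 55%, were those with higher values at 72 h than in 48 h ctrl cells besides Lamc1 (53.0%). Against 48 h kd they were higher too, as was Nid2 (54.6%), while Lamc1 differed by -0.04 (limma, adjusted p = 0.528).

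With that trend taken out, which was tried only once the data had been seen, the 72 h differences from 48 h ctrl were 0.54 for Lama5, which was no longer called, and 0.74 for Lamb2 and 0.66 for Lamc1, which were. From 48 h to 72 h of kd, Lamb2 at 0.57 and Agrn at 0.47 were no longer called, which left 0 of the 9 members called (limma, 7 at an adjusted p-value under 0.05), where 10.8% of genes tested were called. From 72 h to 240 h of kd the same removal left Lamb2 at -0.47 and Lamc1 at -0.55, no longer called.

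All of 10 mESC markers were present in each group, and some of them changed in kd. Klf4 and Tbx3 fell by 0.87 and 1.31 at 48 h and by 0.76 and 1.11 at 72 h, and Dppa5a rose by 1.04 at 72 h. The summed level of the 10 (Pou5f1, Nanog, Sox2, Zfp42, Esrrb, Klf4, Tbx3, Dppa5a, Tdgf1, Utf1) was 5540 to 6845 RPM up to 72 h and in 240 h ctrl cells, and 5047 to 5113 RPM after 240 h of kd, where Zfp42, Esrrb, Klf4 and Tbx3 were lower and none was higher. Markers of other lineages moved too. Of 15 markers of primitive and parietal endoderm, cells that make much laminin and Sparc, 8 were tested at 240 h, of which 5 rose (Gata6, Pdgfra, Dab2, Amn, Cubn) and 2 fell (Sox7, Fst). Their sum was 22.8 to 24.8 RPM in 240 h ctrl cells and 35.8 to 37.5 RPM after 240 h of kd, with 7 of the 15 under 1 RPM, among them Sox17, Foxa2, Afp and Ttr.

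Earlier, the endoderm markers summed to 17.0 to 18.6 RPM in 48 h ctrl cells, 14.1 to 16.3 RPM after 48 h of kd and 13.8 to 16.7 RPM after 72 h of kd, where Sox7 fell at 48 h and Sox7 fell and Cubn rose at 72 h. At 240 h, 8 fibroblast markers summed to 8.13 to 9.26 RPM in ctrl and 20.3 to 23.5 RPM in kd, with Col1a1 and Col1a2 higher of 3 tested and Col3a1, Lum, Dcn, Postn and Twist2 under 1 RPM. The 9 trophoblast markers summed to 85.8 to 94.9 RPM in 240 h ctrl cells and 167 to 168 RPM after 240 h of kd, with 6 higher, Eomes lower and Elf5 and Gata3 under 1 RPM. Their sum was 97.9 to 106 RPM in 48 h ctrl cells, 65.4 to 72.1 RPM after 48 h of kd and 172 to 179 RPM after 72 h of kd, where Eomes and Tfap2c fell at 48 h and Tfap2c rose at 72 h. Tfap2c alone made up most of the trophoblast sum in every group. It was at 79.2 ± 3.51 RPM in 48 h ctrl, 51.4 ± 1.99 in 48 h kd and 150 ± 2.62 in 72 h kd. At 240 h it was at 66.2 ± 3.39 RPM in ctrl and 104 ± 2.57 in kd. The part of such cells in the levels of the members was not tested.

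Other genes of the basement membrane were followed in lists of 79 genes, of which 61 were tested at 48 h, 62 at 72 h and 66 at 240 h. At 48 h, 3 rose and 11 fell. At 72 h, 13 rose and 8 fell, and at 240 h, 14 rose and 6 fell. These counts stand beside 8.64%, 20.3% and 16.1% of all genes tested that were called. Their median log2 difference was 0.03, 0.21 and 0.10 at the 3 times, beside 0.01 over all genes tested each time, and no list gene was called between the control groups.

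Of the 6 remaining laminin chains, 3 were tested at 48 h, 4 at 72 h and 5 at 240 h. Of these, 2 fell at 48 h and 3 at 72 h with none higher, and 1 rose and 1 fell at 240 h. Lamb3, a beta chain of epithelial basement membranes, was low in mESC and fell by 1.39 (SE 0.21) at 48 h and 1.28 (SE 0.27) at 72 h, from 2.10 ± 0.0804 RPM. In 48 h kd and 72 h kd Lamb3 was at 0.497 ± 0.143 and 0.664 ± 0.534 RPM, with 4 to 7 and 1 to 15 reads per library. Lama2, a chain of muscle laminins, rose by 0.82 (SE 0.25) at 240 h, at a level of 1.65 ± 0.368 RPM.

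Among 8 network collagens, 4 were tested. Col4a1, a main chain of the collagen IV network, fell by 0.87 (SE 0.10) at 48 h and 0.67 (SE 0.08) at 72 h, and was at 30.4 ± 1.83 and 30.98 ± 4.80 RPM in ctrl and kd cells at 240 h. Col4a5 rose by 0.79 (SE 0.17) at 72 h and 1.06 (SE 0.22) at 240 h from under 2 RPM, and Col18a1, the precursor of endostatin, rose by 0.73 (SE 0.03) at 72 h from 505 ± 13.2 RPM.

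Of 15 other components, 9 were tested at 48 h and 72 h and 11 at 240 h. Fibronectin (Fn1) was among the 4 that fell at 48 h, by 0.88 (SE 0.05), and the only one that fell at 240 h, by 2.47 (SE 0.05), from 1041 ± 45.4 RPM to 187 ± 8.67 RPM. Fbln2 fell by 0.83 (SE 0.13) at 48 h and Fbn1 (fibrillin 1) by 1.60 (SE 0.16) at 72 h, while Frem2 rose by 0.79 (SE 0.07) at 72 h. At 240 h Tinagl1 rose by 1.58 (SE 0.18), from 0.930 ± 0.146 RPM, and Smoc1, which is related to Sparc, by 1.09 (SE 0.10).

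Receptors moved in both directions, with 2 of 14 lower at 48 h, 3 higher and 2 lower at 72 h and 4 higher and 2 lower at 240 h. Bcam, which binds Lama5, fell by 0.86 (SE 0.08), 0.66 (SE 0.05) and 1.44 (SE 0.06) at the 3 times. Itga3, the alpha subunit of a laminin receptor, fell by 0.73 (SE 0.10) at 48 h and 0.65 (SE 0.09) at 72 h and rose by 0.73 (SE 0.06) at 240 h. The heparan sulfate proteoglycan Sdc4 rose by 1.79 (SE 0.04) at 72 h and 1.44 (SE 0.05) at 240 h, Sdc2 fell by 1.22 (SE 0.10) at 240 h, and Cd151, an integrin partner, rose by 0.74 (SE 0.06) at 72 h.

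Of 21 tested enzymes that assemble or modify the matrix, 1 rose and 1 fell at 48 h, 5 rose at 72 h and none was called at 240 h. The lysyl oxidase relatives Loxl1 and Loxl2 changed by 0.76 (SE 0.16) and -0.92 (SE 0.18) at 48 h, and Loxl1 rose by 0.90 (SE 0.14) at 72 h. Pomt1, which starts the glycan by which dystroglycan binds laminin, rose by 0.98 (SE 0.06) at 72 h. Of the list of proteases and their inhibitors, 10 were tested at 48 h and 72 h and 11 at 240 h, where 5 rose and 2 fell at the last time. Bmp1, which processes laminin and collagen chains, rose by 0.70 (SE 0.14), 1.11 (SE 0.13) and 1.28 (SE 0.12) at 48 h, 72 h and 240 h, and Adamts1, a secreted metalloprotease, by 0.59 (SE 0.19), 1.23 (SE 0.16) and 2.16 (SE 0.12) at the 3 times. Mmp9 rose by 1.56 (SE 0.20) at 240 h from about 1 RPM, Mmp14 fell by 0.91 (SE 0.06) at 72 h and 0.83 (SE 0.07) at 240 h, Mmp11 fell by 0.79 (SE 0.05) at 240 h and Mmp2 by 0.66 (SE 0.08) at 48 h. All calls in these lists are from limma over all genes tested, with adjusted p-values from 2.48e-21 to 0.0368 for the genes named.

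**Figure D5:**
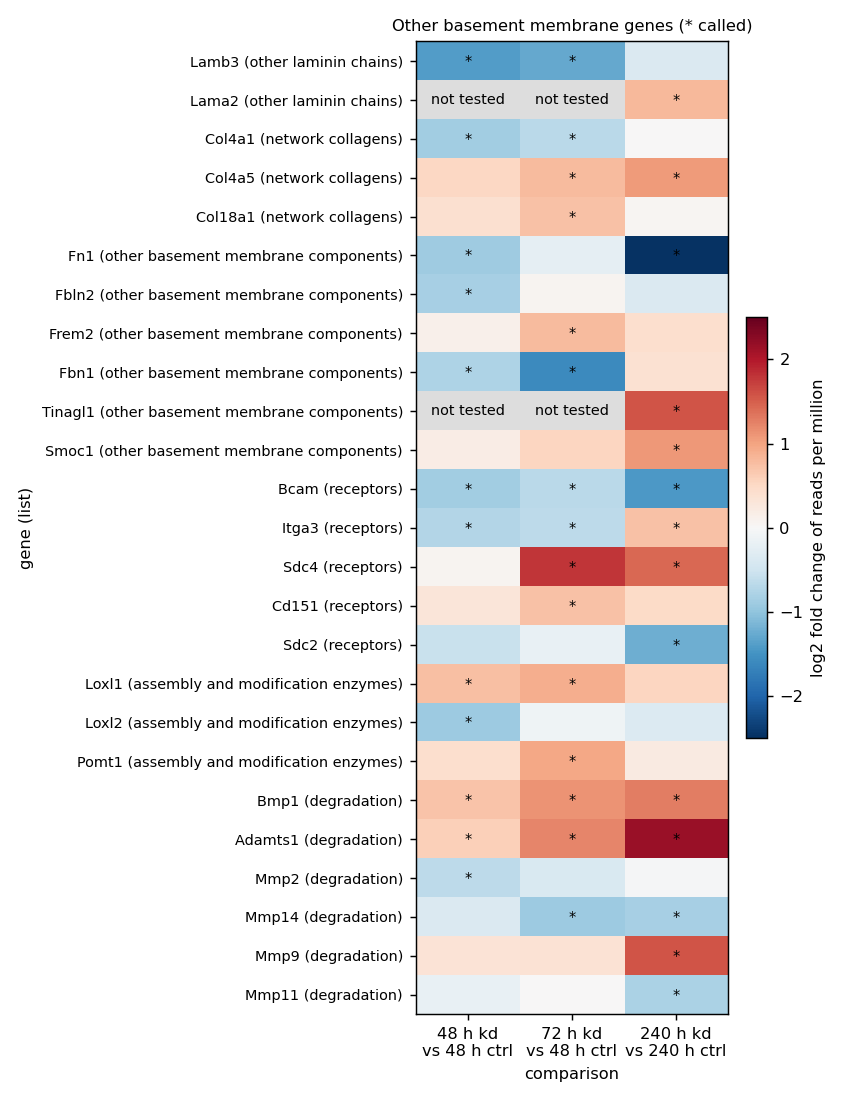
Log2 fold change of RPM (colour, blue lower and red higher in kd) of the called genes with the largest change in each list (rows) in the 3 kd comparisons (columns); asterisks mark calls and grey cells genes under a mean of 1 RPM in that comparison. Bcam is lower and Bmp1 and Adamts1 higher in all 3 columns, while Itga3 changes sign between 72 h and 240 h.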

How the data were processed

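RNA-seq of 15 libraries (single reads) was used. The authors deposited 1 table per library with gene coordinates on mm10 and FPKM values. The submitters' processing notes name STAR 2.7.0c, DESeq2 1.30.0 and R 4.0.3, and the annotation behind the FPKM tables was not given in the sources used here (the methods name GENCODE M23 for gene intervals of ChIP-seq peaks joined to the RNA-seq data by gene identifier). The deposited FPKM values were whole multiples of 1 read over the gene span (tolerance 0.001), from which reads and totals were recovered, and RPM is FPKM times the span in kb. Nested genes never exceeded the gene around them (980 of 980 pairs on the same strand and 1222 of 1222 on opposite strands), so reads were counted over whole spans on either strand.

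Groups came from the labels. Genes with a mean of at least 1 RPM were tested with limma 3.58.1 (R 4.3.3, trended variance) on log2(RPM + 0.5), with the 6 libraries of each comparison, or 12 for the interaction, and Benjamini-Hochberg adjustment over all genes tested. Exonic lengths and gene identifiers came from GENCODE M21, which matched 96.504% of genes. Lama1 was described without a test in every comparison, although tests of it between control groups, between kd groups and between effects had been planned. The scripts were tested on simulated data. All members, the 2 called genes with the largest change in each direction per list, and the 3 genes most like Lama1 were named, except 1 gene that is not reported here. Members and lists were chosen with earlier results of these data known. Alternatives covered scale, filter, pseudocount, normalization, thresholds, control, GC content, the replicate block and each library left out. Depth was 11074998 to 14515300 reads.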

Additional observations from a re-analysis of the deposited data

Results flagged for a closer look

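For 5 members the kd effect at 240 h differed from that at 48 h in the interaction test (limma, adjusted p-value under 0.05), which 21.2% of 15781 genes passed, given here as the effect at 240 h minus that at 48 h on the log2 scale. The difference was -0.34 for Lamb1, -0.95 for Lamc1, -0.33 for Nid1, -0.82 for Agrn and 0.88 for Sparc.

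Of the 64 other basement membrane genes of the lists that were tested, the effect was called higher at 240 h in 17 and lower in 4 with the fold limit of 0.58, where 10.6% of all genes were called. Among them were 13 of the genes named above, which were picked for large changes in kd, so their number says nothing about the lists. The effect was more positive at 240 h by 1.02 for Lamb3, 0.89 for Col4a1, 1.14 for Fbn1, 0.90 for Smoc1, 1.27 for Tinagl1, 1.47 for Itga3, 1.37 for Sdc4, 0.64 for Mmp2, 1.21 for Mmp9 and 1.57 for Adamts1. The 48 h effect of Tinagl1 rests on 3 to 6 reads per library in ctrl and 4 to 10 in kd. That of Lamb3 rests on 4 to 7 reads per library in kd. The effect was more negative at 240 h, with differences of -1.59 for Fn1, -0.66 for Sdc2 and -0.60 for Mmp11. A further 4 of the named genes passed the test but not the fold limit, at -0.36 for Col18a1, -0.58 (just short of it) for Bcam, -0.46 for Mmp14 and 0.57 for Bmp1.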

How the results depend on the processing

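Calls are of the 9 members other than Lama1. Among 1468 log2 fold changes of the 10 members under other settings, 21 changed sign, 24 lost and 32 gained a call. Settings that moved only the thresholds kept the values of the main fit, and most of the lost and gained calls came from these. Without a fold limit 4, 8, 8 and 5 members were called in the 48 h, 72 h, 240 h and control comparisons, 6 between 48 h kd and 72 h kd and 5 in the interaction. At an adjusted p-value under 0.01 and a log2 fold change over 1 the counts were 0 at 48 h (limma, 4 at an adjusted p-value under 0.05), 0 at 72 h, 1 at 240 h, 0 between 48 h kd and 72 h kd, 1 between 72 h kd and 240 h kd and 0 in the interaction. Of all genes tested, 2.3%, 6.82%, 6.1%, 2.33%, 7.47% and 3.5% were called there, in the same order. With 240 h ctrl as the control of 72 h kd, 1 member was called beside 23.7% of genes tested, and Hspg2 (-0.0709) and Agrn (-0.0136) changed sign. With the GC trend removed, 0 were called between 48 h kd and 72 h kd (limma, 7 at an adjusted p-value under 0.05) and 2 between 72 h kd and 240 h kd, beside 10.8% and 21.5% of genes tested. Quantile normalization turned Lama5 between 72 h kd and 240 h kd to -0.00591 and the interaction of Lama1 to 0.0125.

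With each library left out, 0 to 2 members were called between the controls and 1 to 4 between 48 h kd and 72 h kd, and the other counts did not move. Of all genes tested, 0.619% to 1.71% were called between the controls and 10.8% to 12.8% between 48 h kd and 72 h kd in these fits. Sign changes were limited to small values: Lamb1 (-0.0606 to 0.00672) and Sparc (-0.101 to 0.0306) at 48 h, Hspg2 (-0.0834 to 0.0180) at 240 h, Sparc between controls (-0.136 to 0.000226) and between 48 h kd and 72 h kd (-0.111 to 0.0199), Lama5 (-0.0489 to 0.0479), Hspg2 (-0.0126 to 0.0889) and Nid1 (-0.000212 to 0.0497) between 72 h kd and 240 h kd, and Nid2 (-0.0322 to 0.0495), Lama5 (-0.0313 to 0.193) and Lama1 (-0.0600 to 0.000884) in the interaction. On log2(FPKM + 0.1) Lama1 differed by -1.654, -1.997 and -1.725 at 48 h, 72 h and 240 h, and it fell under the minimum of 0.5 FPKM in both comparisons between kd groups.

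Replicate numbers recur in all groups, but in no comparison did every pair of same-numbered libraries correlate over 0.1 (r from -0.259 to 0.0979 at 48 h, -0.0329 to 0.0697 at 72 h, -0.0118 to 0.129 at 240 h, -0.0210 to 0.229 between controls, 0.0132 to 0.139 between 48 h kd and 72 h kd and -0.0725 to 0.0267 between 72 h kd and 240 h kd). A replicate block changed the call or sign of 0 of 70 member values and moved the calls over all genes between controls from 182 to 243. The cause of these changes was not tested.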
